A study of Mus musculus with 8 samples.

Results

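Wnt signalling in the maturation (Mat) stage dental tissue of mouse lower incisors was followed through 45 genes, which had 63 probes on the array, out of 16593 named genes and 25697 probes in all. The members were defined by gene name, with earlier results of these data known. They were every array symbol of the Wnt, Fzd, Sfrp and Dkk families in which a digit follows the family name, together with Lrp5, Lrp6, Axin2, Lef1, Tcf7l2, Sp5, Porcn, Wif1, Frzb and Sostdc1. Axin1 and Tcf7 belonged to the same rule, and no probe carried either symbol.

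Wnt proteins are secreted glycoproteins that carry a lipid, which the acyltransferase Porcn attaches in the endoplasmic reticulum. At the cell surface they bind Frizzled (Fzd) receptors together with the co-receptors Lrp5 and Lrp6, so that beta-catenin escapes the Axin and Apc destruction complex, enters the nucleus and joins Tcf and Lef factors on target genes. Secreted antagonists of the Sfrp family, Frzb and Wif1 bind Wnt proteins themselves, whereas Dkk proteins and Sostdc1 bind the Lrp co-receptors. The pathway is needed for the budding of both teeth and hair follicles, and mice without Sostdc1 grow extra teeth.

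The KO mice were C57BL/6 animals with floxed Med1 alleles and a keratin 14 (Krt14) driven Cre, so that the coactivator Med1 was deleted in Krt14-expressing epithelia and not in the other cells of the tissue. The CON mice were littermates that carried the floxed Med1 alleles without Cre. All mice were 10 wk old. The KO incisors lacked enamel and their hair-bearing dental tissue was dissected, against the equivalent tissue from the enamel-forming CON incisors. Total RNA was hybridized to Illumina MouseRef-8 v2.0 bead arrays, 4 for KO and 4 for CON, and tissue from 3 mice was combined for RNA. Whether each array of a group held its own pool is not clear from the labels, so the p-values rest on the spread from array to array, part or all of which could be technical.

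Levels are normalized bead intensities on the log2 scale, where 1 unit is a 2-fold difference, and differences are KO minus CON with the standard error (SE) of the limma fit. A probe was tested where its detection p was under 0.01 on at least 4 of the 8 arrays, and called where its p, adjusted by Benjamini-Hochberg over all tested probes, was under 5%. The 8 arrays had mean intensities of 550.8 to 811.9 before normalization and detected 11554 to 13134 probes. Correlations were 0.994 to 0.995 between arrays of one group and 0.962 to 0.967 between groups. Of 9085 genes tested in all, 60.9% were called, 24.4% higher and 36.5% lower in KO, the groups did not overlap for 56.8%, and the median difference was -0.12. Of the probes called, 37.5% were higher in KO, and 56.7% with cyclic loess in place of quantile scaling. The targeted gene, Med1, was 1.69-fold lower in KO (difference -0.76 ± 0.13, limma adjusted p = 0.000746), on the brightest of its 4 probes, and the position of that probe relative to the deleted exons was not determined.

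The labelled tissue carried its own markers, since all 6 ameloblast genes on the array were detected on every array, with summed linear levels of 49077 to 54610 in KO and 42742 to 45538 in CON. Of these genes, 3 were called higher, Alpl was lower (-0.49 ± 0.10), and Amelx and Mmp20 did not pass. Ambn had the highest level of the list, and its higher call was lost with median scaling and with cyclic loess. Markers of other cell types moved with genotype. All 5 tested macrophage markers were higher in KO (sums 21176 to 23630 in KO and 1823 to 1992 in CON), as were all 7 skeletal muscle markers (18737 to 20778 in KO and 5346 to 6118 in CON). Keratinocyte and cornified epidermis markers summed to 96419 to 98259 in KO and 49263 to 52304 in CON, with 4 of 6 tested higher, Krt5 lower and Krt14 not past the threshold. Fibroblast, odontoblast and osteoblast markers summed to 37502 to 41495 in KO and 27222 to 28372 in CON (5 of 7 tested higher), although Dspp, Dmp1 and Postn were undetected in both groups. Endothelial markers summed to 4831 to 5575 in KO and 3214 to 3504 in CON, with 4 of 6 tested higher and Kdr undetected in both groups. Adipocyte markers were near the floor, with 4 of 5 undetected. The markers Krt1, Cd163 and Adipoq were undetected in CON and passed the detection filter through their KO arrays alone. Of the melanocyte markers, Tyr, Tyrp1, Pmel and Mitf were undetected, whereas Dct was detected on every array, at 9.24 to 9.37 in KO and 9.82 to 10.03 in CON, and was called lower (-0.63 ± 0.07). In whole tissue, fewer cells of a type and less RNA per cell cannot be told apart, and the part of these shifts in the Wnt values was not tested.

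**Figure D1:**
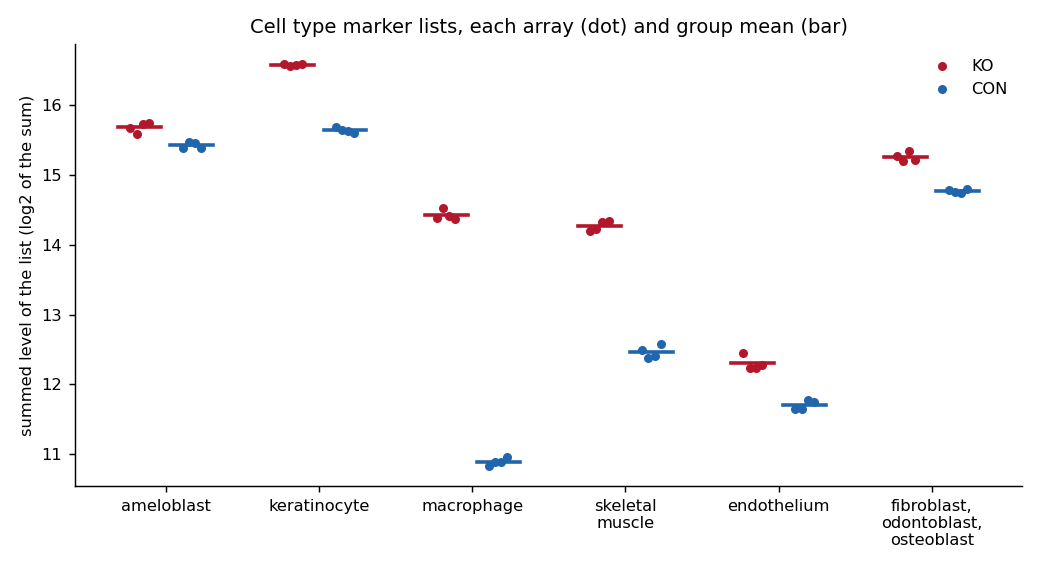
Summed level of each cell type marker list (vertical axis, log2 of the sum of linear levels) on the 4 KO arrays (red, left) and the 4 CON arrays (blue, right), with bars at group means. The KO and CON arrays do not overlap for any of the 6 lists drawn, and the macrophage list is the farthest apart (21176 to 23630 in KO against 1823 to 1992 in CON on the linear scale).

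Among the 45 members, 27 genes were bright enough to test. Of these, 8 were higher in KO, 10 were lower and 9 did not pass, which is 66.7% called, beside 60.9% of all genes tested. The groups did not overlap for 15 of the 27, beside 56.8% of all genes, and the members' median difference was -0.11, beside -0.12. The members as a whole were thus called at about the rate of the array. The roles differed in the direction of their calls: 6 of 9 tested Wnt ligands were lower and 0 higher, whereas 4 of 6 tested antagonists were higher and 0 lower, beside 36.5% lower and 24.4% higher of all genes. The median difference was -0.41 for the Wnt ligands and 0.77 for the antagonists.

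The other 18 members were not detected on any of the 8 arrays. They were the ligands Wnt1, Wnt2, Wnt2b, Wnt3, Wnt8a, Wnt8b, Wnt9a, Wnt9b, Wnt11 and Wnt16, the receptor Fzd4, the co-receptor Lrp6, the antagonists Dkk1, Dkk2, Dkk4, Sfrp5 and Frzb, and the transcription factor Lef1, which drives hair follicle formation and tooth development with beta-catenin. For these genes the signal was not above background in either group.

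**Figure D2:**
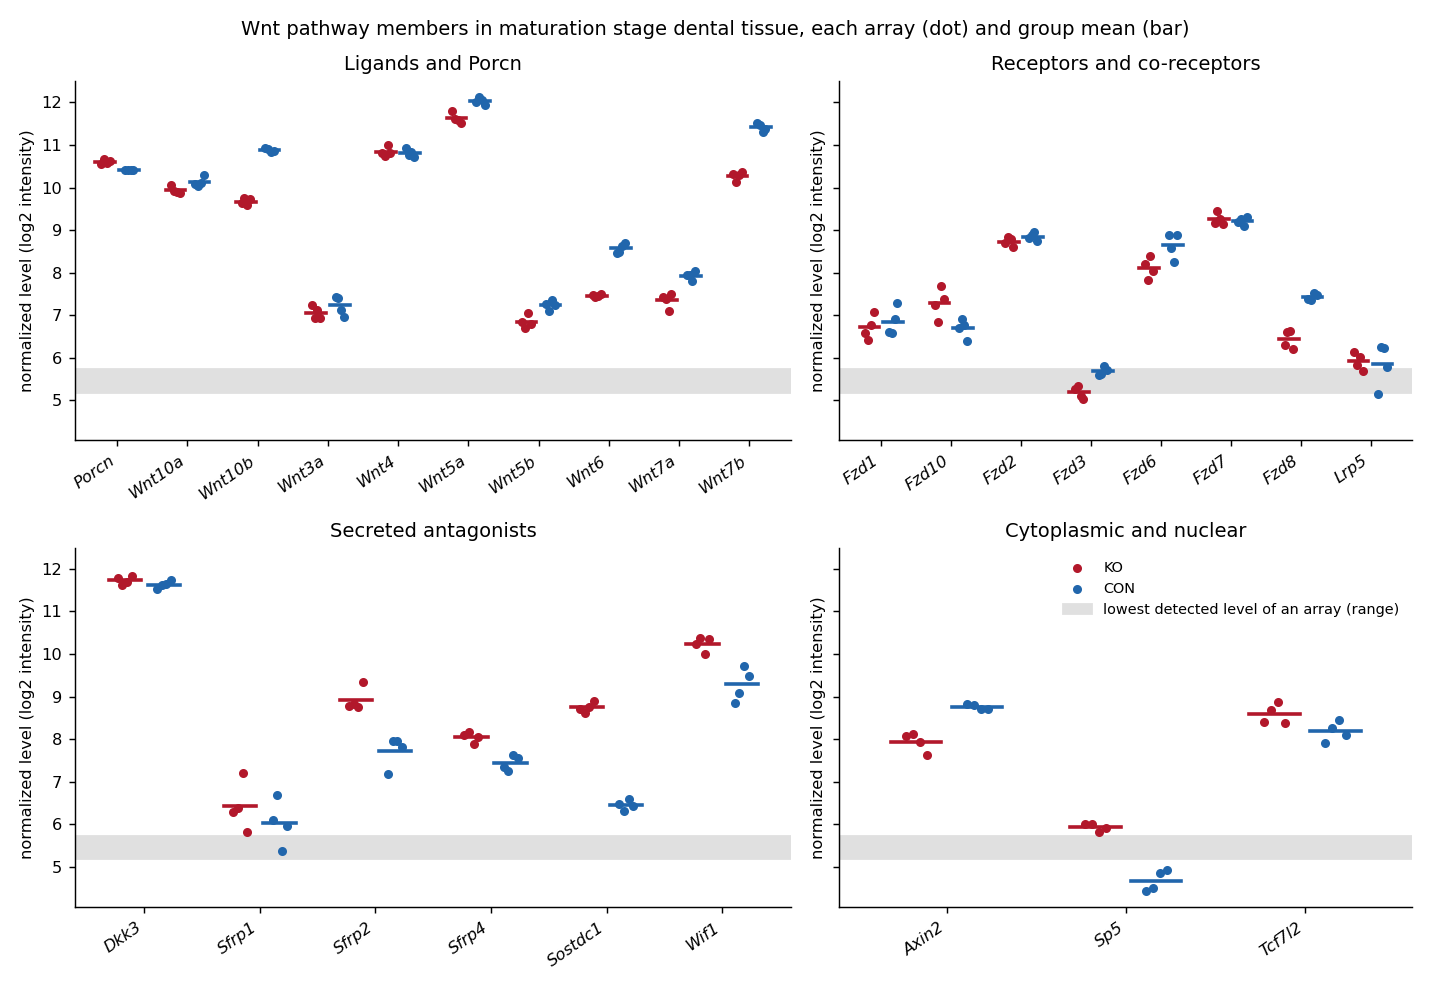
Normalized level (log2 intensity) of each tested member on every KO array (red, left) and every CON array (blue, right), with bars at group means, in panels by role. The grey band spans the lowest detected level of the 8 arrays, and the Sp5 levels of all 4 CON arrays lie under it.

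Wnt10b, a ligand of hair placodes and of the dental epithelium, had the largest fall among the ligands when each is read from its brightest probe. Its levels were 9.64, 9.75, 9.58 and 9.72 in the KO arrays, against 10.92, 10.91, 10.84 and 10.87 in the CON arrays. The highest KO array was far below the lowest CON array. The difference was -1.21 ± 0.07 (2.31-fold lower, limma adjusted p = 2.11e-07). Wnt7b, an epithelial ligand, gave 10.33, 10.13, 10.29 and 10.37 in KO and 11.51, 11.47, 11.31 and 11.37 in CON, a difference of -1.13 ± 0.08 (adjusted p = 1.16e-06). A second Wnt7b probe was also lower (-1.25 ± 0.08). Wnt6, likewise an epithelial ligand in the developing tooth and skin, stood at 7.47, 7.42, 7.46 and 7.49 in KO and at 8.47, 8.49, 8.62 and 8.70 in CON. The groups did not overlap, and the difference was -1.11 ± 0.07 (2.16-fold lower, adjusted p = 7.25e-07). These 3 ligands were the only members at least 2-fold lower.

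Smaller decreases were measured for 3 more ligands. Wnt7a, expressed in epidermis and hair follicle epithelium, had levels of 7.44, 7.39, 7.10 and 7.49 in KO, against 7.94, 7.94, 7.81 and 8.03 in CON (difference -0.58 ± 0.10, adjusted p = 0.000605). Wnt5a, which signals mainly without beta-catenin, had 11.81, 11.62, 11.58 and 11.52 in KO and 12.02, 12.12, 12.06 and 11.95 in CON. The groups did not overlap for either gene, and the Wnt5a difference was -0.41 ± 0.08 (adjusted p = 0.0018), with a second probe at -0.41 ± 0.08. Wnt5b, its close relative, had 6.85, 6.69, 7.06 and 6.80 in KO and 7.27, 7.09, 7.35 and 7.24 in CON, so that the highest KO array lay just under the lowest CON array (-0.39 ± 0.09, adjusted p = 0.00531). Under cyclic loess normalization Wnt5b was no longer called (-0.14, adjusted p = 0.25), and Wnt7a was called at -0.35. The deposited normalized values gave -0.22 for Wnt5b and -0.38 for Wnt7a.

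Wnt3a, a ligand that acts through beta-catenin and that the study names, showed no difference beyond the spread. It had 7.25, 6.93, 7.12 and 6.94 in KO, against 7.44, 7.41, 7.13 and 6.96 in CON, so the groups overlapped (-0.17 ± 0.12, adjusted p = 0.25), and its sign turned with cyclic loess (0.08). Wnt10a, a ligand whose loss in mice and people disturbs teeth, gave -0.19 ± 0.08 (adjusted p = 0.075) with overlapping groups, and passed the threshold in 5 of 19 alternative settings. Wnt4 gave 0.03 ± 0.08 with overlapping groups, its second probe gave 0.01 ± 0.07, and its sign turned with median scaling (-0.14). In the RefSeq annotation (GRCm38.p6) the member genes lie beside each other as Wnt6 and Wnt10a, Wnt10b and Wnt1, Wnt3a and Wnt9a, and Wnt3 and Wnt9b. Only the first of these pairs had both genes tested, and Wnt6 was lower while Wnt10a was not called. Porcn, the enzyme that all Wnt ligands need, was 1.14-fold higher in KO, at 10.56, 10.66, 10.57 and 10.62 in KO and 10.41, 10.41, 10.42 and 10.41 in CON (0.19 ± 0.06, adjusted p = 0.024). The groups did not overlap on this probe, yet it was no longer called with median scaling (0.03, adjusted p = 0.82). The call was also lost without KO replicate 2, KO replicate 4 or CON replicate 2 (adjusted p = 0.056, 0.055 and 0.053). A second Porcn probe gave 0.21 ± 0.11, was not called (adjusted p = 0.12) and had overlapping groups.

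**Figure D3:**
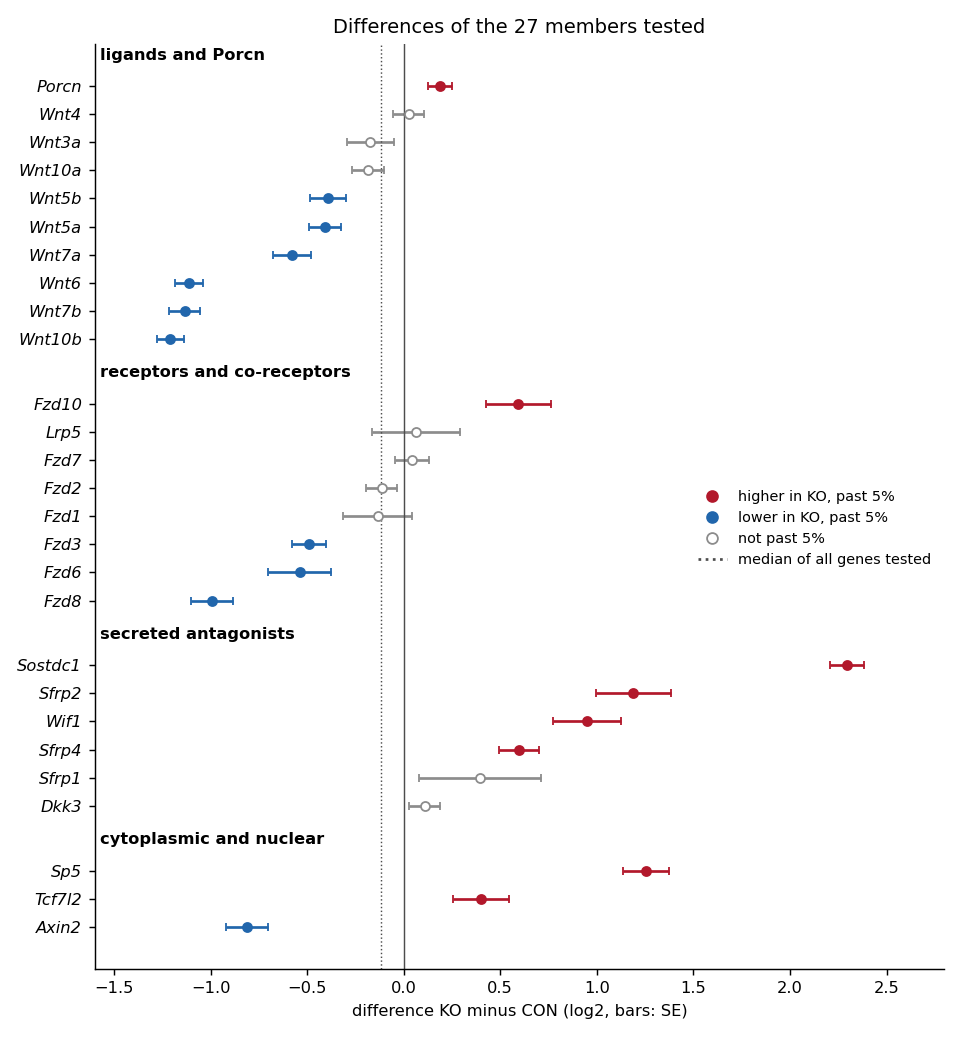
Difference KO minus CON (horizontal axis, log2) of each tested member with its SE, grouped by role, filled red where higher and filled blue where lower past the 5% threshold, and open where not past it. The dotted line marks the median of all genes tested (-0.12). The 6 called Wnt ligands lie between -1.21 and -0.39, and the 4 called antagonists between 0.60 and 2.30.

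Of the 10 receptors and co-receptors, 8 were tested, 1 was higher, 3 were lower and 4 did not pass. At 50% called and 37.5% lower, beside 60.9% and 36.5% of all genes, the receptors were not called more often than the array as a whole. Fzd8, a Frizzled receptor, had 6.29, 6.61, 6.64 and 6.21 in KO, against 7.39, 7.35, 7.52 and 7.47 in CON. The groups were well apart (-0.99 ± 0.11, 1.99-fold lower, adjusted p = 3.2e-05). Fzd6, which controls the orientation of hairs in mouse skin, had 8.20, 7.83, 8.39 and 8.04 in KO and 8.88, 8.58, 8.26 and 8.89 in CON. The third CON array lay among the KO arrays, the difference was -0.54 ± 0.16 (adjusted p = 0.016), and the call was lost with cyclic loess (-0.36, adjusted p = 0.084). Fzd3, a partner of Fzd6 in planar cell polarity, was close to background, with 5.27, 5.34, 5.11 and 5.04 in KO (detected on 2 arrays) and 5.60, 5.61, 5.80 and 5.72 in CON (detected on 3 arrays). Its groups did not overlap (-0.49 ± 0.09, adjusted p = 0.000891).

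Fzd10, named by the study, was the only receptor called higher. It had 7.25, 6.84, 7.68 and 7.38 in KO and 6.69, 6.91, 6.77 and 6.40 in CON. The second KO array lay below the second CON array, and the difference was 0.59 ± 0.17 (1.51-fold, adjusted p = 0.013). Further Fzd10 probes, too dim to test, had mean levels of 5.24 and 4.98 in KO and 5.16 and 4.85 in CON. The differences of dim receptors were smaller without background correction, at 0.31 for Fzd10, -0.49 for Fzd8 and -0.13 for Fzd3, and all 3 kept their calls there. The receptors Fzd1 (-0.13 ± 0.18), Fzd2 (-0.11 ± 0.08) and Fzd7 (0.04 ± 0.09) and the co-receptor Lrp5 (0.06 ± 0.23) had overlapping groups and adjusted p of 0.25 to 0.83. The signs of Fzd1 and Fzd2 turned with cyclic loess (0.10 and 0.05), and that of Fzd7 with median scaling (-0.07).

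The largest difference of all members was that of Sostdc1, an antagonist of both Wnt and bone morphogenetic protein signalling that is made in dental and hair follicle epithelium. Its levels were 8.72, 8.62, 8.75 and 8.90 in KO, against 6.47, 6.31, 6.59 and 6.44 in CON. No KO array was near a CON array, and the difference was 2.30 ± 0.09 (4.91-fold higher, adjusted p = 1.28e-08). Without background correction it was still called, at 1.40.

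Sfrp2, a Wnt-binding antagonist of the mesenchyme, had 8.77, 8.82, 8.75 and 9.34 in KO and 7.17, 7.96, 7.96 and 7.82 in CON. The fourth KO array stood above the others and the first CON array below them, and the groups did not overlap (1.19 ± 0.19, 2.28-fold higher, adjusted p = 0.000482). Wif1, the Wnt inhibitory factor, had 10.23, 10.38, 10.00 and 10.35 in KO, against 8.86, 9.09, 9.73 and 9.48 in CON. The CON arrays spread over a wider range than the KO arrays, without reaching them (0.95 ± 0.18, 1.93-fold higher, adjusted p = 0.00113). Sfrp4, a further member of the Sfrp family, had 8.09, 8.17, 7.89 and 8.04 in KO and 7.34, 7.25, 7.63 and 7.56 in CON. Its groups did not overlap either (0.60 ± 0.10, 1.51-fold higher, adjusted p = 0.000698), and the difference was 0.38 without background correction. Sfrp1 (0.39 ± 0.31, adjusted p = 0.30) and Dkk3 (0.11 ± 0.08, adjusted p = 0.26), a divergent Dkk protein, had overlapping groups. A second Dkk3 probe gave -0.11 ± 0.11, and the sign of the first turned with median scaling (-0.06). Of the tested markers of fibroblasts, odontoblasts and osteoblasts, cells of the mesenchyme, 5 of 7 were also higher in KO, beside 24.4% of all genes. Col1a1 and Pdgfra did not pass, and Dspp, Dmp1 and Postn were undetected in both groups. The part of these cells in the antagonist values was not tested.

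The cytoplasmic and nuclear members included a pair of textbook direct targets of beta-catenin, Axin2 and Sp5, which were called in opposite directions, although Sp5 was undetected in CON. The windows of 250 bases before the starts of these 2 genes are printed because the pair is commonly read as a gauge of beta-catenin signalling. They come from RefSeq promoter sequences (build GRCm38.p6), 5′ to 3′ on the plus strand, in which both genes lie, at chr2:70474673-70474922 for Sp5 and chr11:108920099-108920348 for Axin2. Capitals mark matches, on either strand, to a core Tcf and Lef motif spelled CTTTG followed by A or T and then again by A or T.
Sp5: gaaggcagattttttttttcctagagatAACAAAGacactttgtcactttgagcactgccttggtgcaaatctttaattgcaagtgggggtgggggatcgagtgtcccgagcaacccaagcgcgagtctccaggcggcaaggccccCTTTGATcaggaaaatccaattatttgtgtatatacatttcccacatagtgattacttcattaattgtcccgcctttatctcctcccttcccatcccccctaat
Axin2: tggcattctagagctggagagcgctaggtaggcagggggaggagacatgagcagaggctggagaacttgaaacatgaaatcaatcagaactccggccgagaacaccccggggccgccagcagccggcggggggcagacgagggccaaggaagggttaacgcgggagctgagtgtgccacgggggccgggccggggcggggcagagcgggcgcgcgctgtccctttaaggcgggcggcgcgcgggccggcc
The Sp5 window held 2 matches, CTTTGTT on the reverse strand and CTTTGAT on the forward strand, whose first bases as printed lay 222 and 104 bases before the start. The Axin2 window held 0 matches. Such a match was present in 16.8% of all 27025 genes with a window of this length. Of the 14 tested members with a window, 4 held one, and they were Sp5, Tcf7l2, Wnt5b and Fzd7. A match is a description of the letters and not a site of binding.

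Axin2, a scaffold of the destruction complex that is induced by Wnt signalling and limits it, had 8.08, 8.13, 7.93 and 7.63 in KO, against 8.82, 8.80, 8.70 and 8.71 in CON. All KO arrays were lower than all CON arrays (-0.81 ± 0.11, 1.76-fold lower, adjusted p = 0.000121). Sp5, a zinc finger repressor, had 6.01, 6.01, 5.81 and 5.92 in KO, where it was detected on all 4 arrays, and 4.44, 4.49, 4.86 and 4.92 in CON, where it was detected on 0. It was thus at least 1.36-fold higher in KO, counted against the lowest detected signal of each CON array. The limma adjusted p of 1.03e-05 belongs to the measured difference from undetected CON values and not to that bound. The probe passed the detection filter through its KO arrays alone, so this p is no separate support for the increase. Without background correction the measured Sp5 difference was 0.35, which is still called and is smaller than that bound. Tcf7l2, a transcription factor that brings beta-catenin to DNA, had 8.40, 8.69, 8.88 and 8.37 in KO and 7.91, 8.27, 8.46 and 8.09 in CON. The groups overlapped (0.40 ± 0.15, adjusted p = 0.036), and it was no longer called with median scaling (adjusted p = 0.11) or with no filter on dim probes (0.062). The call was also lost without KO replicate 2 (0.083), KO replicate 3 (0.095), CON replicate 1 (0.096) or CON replicate 4 (0.081). Further Tcf7l2 probes, too dim to test, had mean levels of 5.08 and 4.37 in KO and 5.05 and 4.43 in CON.

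Genes of the pathway outside the members were taken from 5 lists of 127 symbols, of which 113 were on the array and 78 were tested. Some genes stood on more than 1 list, and these totals count each gene once. Of the 78 tested, 17 were higher in KO, 36 were lower and 25 did not pass, with a median of -0.21 beside -0.12 for all genes. That is 21.8% higher and 46.2% lower, beside 24.4% and 36.5% of all genes. The balance of higher and lower calls moved with the scaling, here and on the array as a whole. Cyclic loess gave 22 higher and 24 lower of these genes. Of all 12838 tested probes it called 3731 higher and 2850 lower, where quantile scaling called 2878 and 4787. Of 17 secreted and surface regulators, 3 were higher, 11 were lower (64.7%, beside 36.5% of all genes) and 3 did not pass (median -0.47). Among the counted calls, Rspo4 and Notum passed the detection filter through their KO arrays alone, and Lgr6 through its CON arrays alone. The calls of Rspo4, Notum and Lgr6 are thus no separate support for their differences. Lypd6, a membrane-bound enhancer of Lrp6 signalling, had 7.22, 7.20, 7.31 and 7.11 in KO, against 9.11, 8.97, 9.0 and 9.05 in CON. That 3.54-fold decrease, with groups far apart, had the largest t of this list (-1.82 ± 0.07, adjusted p = 1.49e-08). Lgr6, an R-spondin receptor of epithelial stem cells, was undetected on all KO arrays and at least 1.41-fold lower. Gpc3, a cell surface proteoglycan that binds Wnt, was 2.15-fold higher (1.11 ± 0.07), and Rspo4, an R-spondin ligand of nail and skin, was undetected in CON and at least 1.49-fold higher. Both bounds hold for background-corrected values, and without that correction the measured differences were smaller, at -0.28 for Lgr6 and 0.48 for Rspo4. Chosen after their values were seen, Wls, which carries Wnt proteins to the cell surface, was lower (-0.41 ± 0.10), as was the ligand Rspo1 (-1.30 ± 0.16). Notum, an enzyme that strips the lipid from Wnt proteins and was likewise chosen, was undetected in CON. It was at least 1.42-fold higher in KO after background correction. Draxin (-0.99 ± 0.11) and Apcdd1 (-0.47 ± 0.09), inhibitors of Wnt signalling also looked up afterwards, were lower, unlike the called antagonists among the members.

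In the cytoplasmic relay and destruction complex 3 genes were higher, 7 lower and 7 not past of 17 (median 0.01), which is 58.8% called, beside 60.9% of all genes. Ctnnbip1, which blocks the binding of beta-catenin to Tcf factors, was 1.81-fold higher (0.86 ± 0.06, adjusted p = 1.77e-06). Btrc, the ubiquitin ligase subunit that recognizes beta-catenin, was lower (-0.67 ± 0.06), as were Dact1, a binding partner of Dvl proteins (-0.79 ± 0.14), and Apc, a scaffold of the complex (-0.55 ± 0.10). Beta-catenin itself, Ctnnb1, looked up after its list was seen, was higher by 0.34 ± 0.11 (adjusted p = 0.025). Its lowest KO array was level with its highest CON array (12.71 in both). Of 17 nuclear partners 2 were higher, 7 lower and 8 not past (median -0.03), which is 52.9% called. Tcf7l1, mostly a repressor and a factor of hair follicle stem cells, was 2.05-fold higher (1.04 ± 0.07), and the Groucho co-repressors went both ways, with Tle4 higher (1.10 ± 0.07) and Tle3 lower (-0.999 ± 0.21). Pygo1, a co-activator that reads histone H3 tails, was lower (-0.52 ± 0.09).

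**Figure D4:**
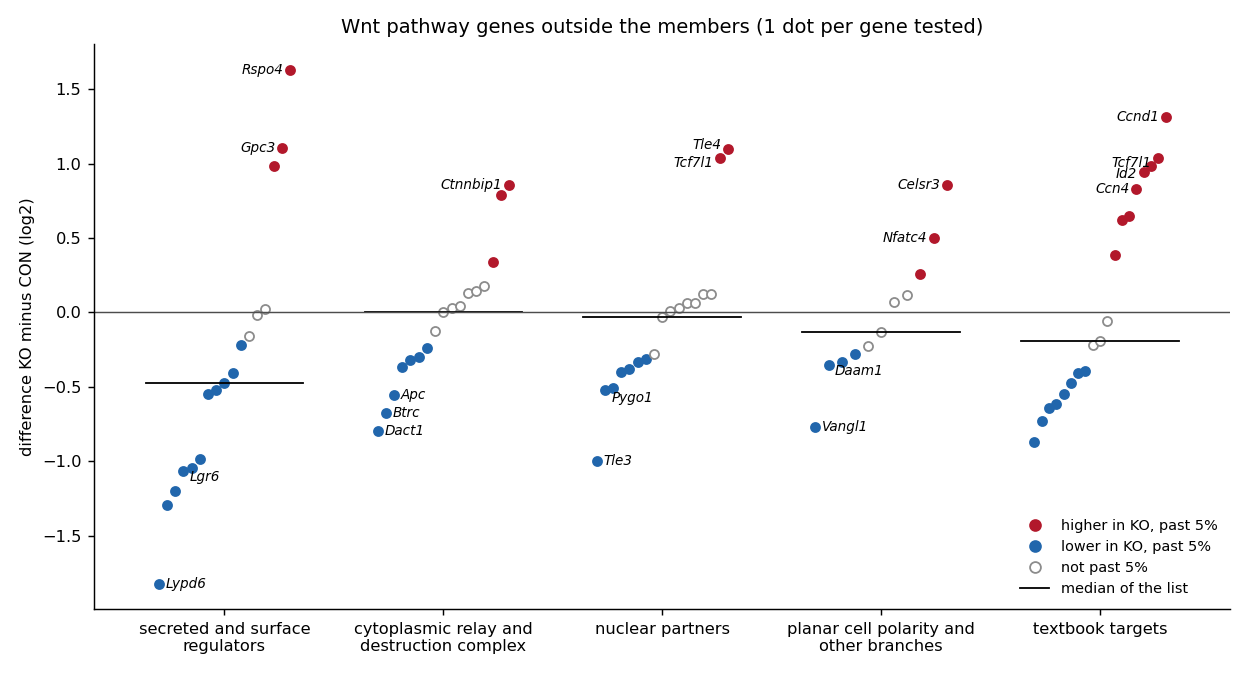
Difference KO minus CON (vertical axis, log2) of each tested pathway gene outside the members, in 5 lists with a line at each list's median. Each list has 1 dot per gene, and a gene on more than 1 list has a dot in each. Filled red dots were higher and filled blue dots lower past the 5% threshold, open dots were not past it, and genes named by rule are labelled. In the list of secreted and surface regulators 11 of 17 dots are blue.

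Planar cell polarity and other branches that bypass beta-catenin went both ways, with 3 higher, 4 lower and 4 not past of 11 (63.6% called, beside 60.9% of all genes). Vangl1 (-0.77 ± 0.10), a core polarity protein, and Daam1 (-0.35 ± 0.09), a formin downstream of Dvl, were lower, and Daam1 lost its call with cyclic loess (-0.18, adjusted p = 0.11). Nfatc4, a calcium-regulated transcription factor, was higher (0.50 ± 0.08), and Celsr3, a polarity cadherin, was undetected in CON and at least 1.06-fold higher. Celsr3 passed the detection filter through its KO arrays alone, so its call is no separate support for the increase. Of 19 textbook targets of beta-catenin and Tcf, 8 were higher, 8 lower and 3 not past (median -0.19). That is 42.1% higher and 42.1% lower, beside 24.4% and 36.5% of all genes. These counts include Tcf7l1, Notum and Apcdd1, which were also counted in the lists above. The cell cycle gene Ccnd1 had the largest increase, with 10.71, 10.58, 11.09 and 10.80 in KO, against 9.38, 9.46, 9.76 and 9.33 in CON. The groups did not overlap, and the fold was 2.49 (1.31 ± 0.13, adjusted p = 1.26e-05). Ccn4, a matricellular protein (0.83 ± 0.07), and Id2, an inhibitor of helix-loop-helix factors (0.95 ± 0.11), were also higher. The targets called lower reached -0.87 (Msx2, named after its value was seen), a homeobox gene of tooth and hair follicle.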

How the data were processed

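Dissected dental tissue of KO and CON lower incisors was profiled on 8 single-colour Illumina MouseRef-8 v2.0 arrays (4 KO, 4 CON). The deposited table used here holds the mean bead intensity of each probe, which the authors summarised in GenomeStudio (version not given in the sources used here) and did not normalize. The deposited detection p-value beside each intensity compares a probe with the negative control beads. A second deposited table, used as an alternative, holds each intensity after between-array normalization by the authors in the same software.

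Intensities were background-corrected and quantile-normalized with limma 3.58.1 (neqc, offset of 16, control distribution inferred from the detection p-values) in R 4.3.3. Probes detected at p under 0.01 on at least 4 arrays were fitted with lmFit and eBayes, KO against CON, with Benjamini-Hochberg adjustment over all 12838 tested probes and a 5% threshold. The brightest tested probe stood for a gene. Genes were named from the platform annotation, in which 23978 probes had 1 symbol, 0 had several and 1719 had none, and the 45 members all matched a RefSeq gene. A bound on a fold sets the mean of the detected group against the mean, over arrays of the undetected group, of the lowest detected signal or the probe's own, whichever was higher. Summed marker levels include the offset. Bead intensities hold no counts, and precision is limited by the number of arrays, by the background and by the unclear pooling of the arrays. The fit was tested on simulated data. Figures were drawn with matplotlib 3.10.9.

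Per-array values are given for up to 6 called genes of each role by moderated t, for every called member at least 2-fold different, and for Wnt3a and Fzd10. Porcn is added as the only other called member. From each pathway list up to 4 called genes by moderated t are named, and other genes are said to be chosen after their values were seen. The members and lists were chosen with earlier results of these data known. Alternatives were other background corrections, scalings, filters, models and probe rules, the methods' t-test, and leaving out each array. Array numbers shared by KO and CON were not treated as pairs in the main fit. Whether they pair the samples is not clear from the labels.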

Additional observations from a re-analysis of the deposited data

Results flagged for a closer look

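Levels of 61 genes (27 members, 19 pathway genes, 14 marker genes and Med1) were checked for a single array far from the other 3 of its group, which chance alone gives in about 1 of 20 groups, and 5 of 122 groups had one. Sfrp2 stood at 9.34 on KO replicate 4, against 8.82 on the nearest KO array. Pygo1 stood at 6.57 on CON replicate 4, where the nearest CON array had 6.87. Among marker genes, Ambn had 14.81 on KO replicate 2, Krt14 had 15.3 on KO replicate 1 and Adipoq had 5.79 on KO replicate 3.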

How the results depend on the processing

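The difference of each gene was recomputed under up to 19 alternatives. Of the 18 called members, 14 kept their call in all of them, and the exceptions were Porcn, Tcf7l2, Fzd6 and Wnt5b, as described with their values. Wnt10a gained a call in 5. Of the named pathway genes, Daam1 lost its call with cyclic loess. With cyclic loess the probes called lower numbered 2850, against 4787 with quantile normalization, and 56.7% of called probes were higher, against 37.5%. The median over tested probes was 0.02 with cyclic loess and -0.22 with median scaling, against -0.14. The median of the Wnt ligands stayed below 0 with both (-0.33 and -0.58), and that of the antagonists above 0 (0.95 and 0.68). The methods' t-test at its own threshold on p and fold called 1733 probes higher and 1535 lower, 5 members higher and 5 lower, 3 Wnt ligands lower, and 13 pathway genes higher and 11 lower, against 17 and 36 in the limma fit. After Benjamini-Hochberg it called 7 members higher and 9 lower. Signs turned only for genes that were not called in either setting, namely with median scaling Wnt4 (-0.14), Fzd7 (-0.0695), Dkk3 (-0.0600) and Krt14 (-0.14), and with cyclic loess Wnt3a (0.0764), Fzd1 (0.10) and Fzd2 (0.0506). Leaving out 1 array at a time moved Lrp5 over -0.18 to 0.20, Fzd7 over -0.0189 to 0.0800, Wnt4 over -0.0247 to 0.0652 and Fzd1 over -0.26 to 0.00951. The cause of these changes was not tested. Same-numbered KO and CON arrays did not deviate together (correlations of -0.01 to 0.02), and with the array number as a replicate block 7 members were higher and 10 lower, Porcn being the call lost (adjusted p = 0.065). Without background correction the differences of dim genes shrank. The arrays give no level below background, which limits the 18 undetected members.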
